A study of Mus musculus with 7 samples.

Results

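The genes described here make, break down or move glycogen, the branched glucose polymer that muscle stores as fuel. They are Stbd1, Gaa, Gys1, Gbe1, Gyg, Pygm, Phka1, Phkg1 and Epm2a, and every probe set annotated to exactly 1 of these symbols was taken. That gave 16 probe sets for the 9 genes, of 34945 probe sets for 18193 genes and 45101 probe sets in all. The set was chosen by its members' differences between mutant and wild-type muscle in these same 7 arrays, so the differences between these groups are given as a description, with no test.

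Expression was measured in quadriceps femoris, a thigh muscle, on Affymetrix arrays with 1 array per sample. The 3 mutant arrays came from mice that overexpress a mutant Twinkle protein, aged 24, 24 and 21 months, and the 4 wild-type arrays from mice aged 26, 24, 21 and 23 months. Twinkle (gene Twnk, formerly C10ORF2 in human nomenclature) is the helicase that unwinds mitochondrial DNA, and the mice model progressive external ophthalmoplegia, a mitochondrial muscle disease. The promoter of the transgene, the sex of the mice and whether the wild-type mice were littermates are not stated in the sources used.

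In muscle, glycogenin (Gyg) primes a new glycogen particle, glycogen synthase (Gys1 in muscle) lengthens its chains and the branching enzyme (Gbe1) adds branches. Phosphorylase (Pygm in muscle) releases glucose 1-phosphate from the chains after phosphorylase kinase, whose muscle subunits include Phka1 and Phkg1, has activated it. A second route runs through the lysosome: Stbd1, a protein that binds starch and glycogen, is thought to tether glycogen to membranes and to autophagy proteins, and acid alpha-glucosidase (Gaa) digests glycogen inside the lysosome. Loss of Gaa causes Pompe disease, loss of Pygm causes McArdle disease, and loss of laforin (Epm2a), a glycogen phosphatase, causes Lafora disease.

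Each value is a log2 value relative to the median of that probe set over the 7 arrays, as deposited. The values therefore compare arrays within a probe set and give no levels that could be compared between genes. In 25454 of the 45101 probe sets (56.4%) more than 1 array stood at exactly 0, and several of the glycogen probe sets were among them. A rough level was read from the spacing of the deposited numbers, which follows the size of the log2 value of the dimmest arrays before centring. By this reading the dimmest arrays lay between 8 and 16 on the log2 scale for all probe sets of Stbd1, Gaa, Gyg, Pygm, Phka1 and Phkg1 and for 1 of 2 of Gys1, and between 4 and 8 for the other Gys1 probe set, Gbe1 and both probe sets of Epm2a.

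The sample descriptions name cerebellum while titles, source and tissue entries name muscle. Of 10 muscle fibre markers 9 had a level between 8 and 16, against 0 of 9 measured cerebellum markers. Wild-type replicate 3 stood apart. Its Gapdh control probe sets, which read RNA integrity, had a 5 prime minus 3 prime log2 value of -0.55, against -0.040 to 0.094 in the other 6 arrays. Each end is relative to its own median over the arrays, so this is a shift from the other arrays and not a level. In the beta-actin control the same array had 0.12, inside the range of the other 6 arrays (-0.14 to 0.12). Its means for adipocyte (1.02), fibroblast (0.78) and leukocyte (0.74) markers were the highest of the 7 arrays, and its muscle fibre mean (-0.34) was the lowest. Mutant replicate 1 had the highest 18S ribosomal RNA control value, 3.19, while the remaining arrays ran between -0.77 and 0.56. Twnk measured -0.15, 0.44 and 0 in mutant muscle, against 0.34, -0.13, -0.14 and 0.15 in wild-type muscle, so the groups overlapped and its probe set did not show the labelled overexpression. Whether that probe set detects the transgene was not tested. In whole muscle, fewer cells of a type and less RNA per cell cannot be told apart.

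Mutant muscle had more Stbd1 signal than wild-type muscle, and Stbd1 was the only one of the 9 genes whose groups did not overlap. Its single probe set (1434442_at) lay at 0.33, 0.31 and 0.22 in the mutant arrays, against -0.50, 0, -0.38 and -0.61 in the wild-type arrays. The lowest mutant array stood 0.22 above the highest wild-type array, which was wild-type replicate 2. Mutant muscle averaged 0.29 ± 0.06 (SD, n = 3). Wild-type muscle averaged -0.37 ± 0.26 (SD, n = 4), which gave a log2 difference of 0.66 ± 0.15 (limma standard error) or 1.58-fold. The spread within wild-type muscle was thus wider than that within mutant muscle. Across all probe sets tested, 172 (0.492%) had a larger positive difference.

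Because the groups did not overlap, leaving out any 1 array could not reverse the Stbd1 difference. It ran from 0.58 (wild-type replicate 4 left out) to 0.78 (wild-type replicate 2 left out). Without wild-type replicate 3, the array with the low Gapdh value, it was 0.66. The first principal component of all probe sets, which held 51.3% of the variance, put mutant replicate 2 and wild-type replicates 1 and 4 on one side and the other 4 arrays on the other. The Stbd1 difference was 0.86 within the first set and 0.47 within the second. The beta-actin control, which also reads RNA integrity, had a 5 prime minus 3 prime value of -0.14, -0.0081 and -0.10 in mutant muscle, against 0.02, 0.12, 0.12 and 0.08 in wild-type muscle, so it separated the groups as Stbd1 did. Its part in the Stbd1 difference was not tested. Slow fibre markers averaged 0.26, -0.12 and -0.20 in mutant muscle, against -3.02, -2.11, 0.72 and 0.51 in wild-type muscle, and their part was not tested either.

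**Figure D1:**
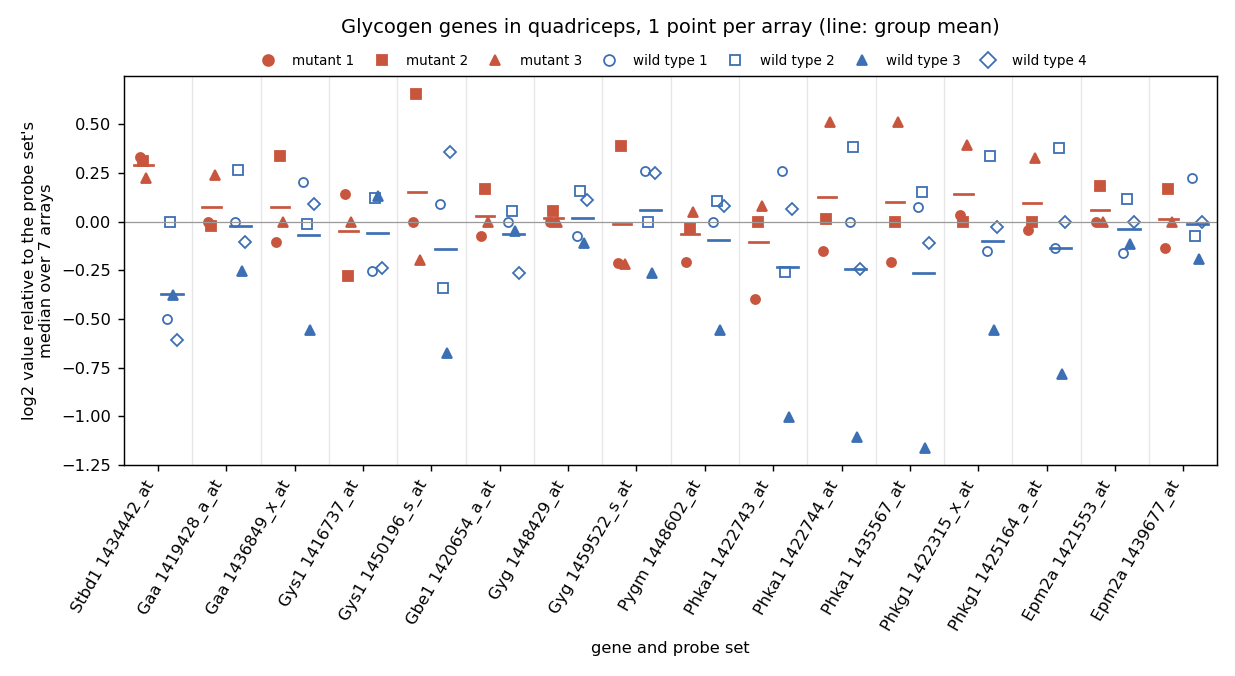
Log2 value relative to the probe set's median over 7 arrays (vertical axis) for the 16 probe sets of the 9 glycogen genes (horizontal axis), with mutant arrays left and wild-type arrays right, 1 point per array and lines at group means. Stbd1 alone has all mutant arrays (0.22 to 0.33) above all wild-type arrays (-0.61 to 0), and wild-type replicate 3, the filled blue triangle, is lowest in 12 of the 16 probe sets.

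Tested over the whole table with limma and Benjamini-Hochberg adjustment, 0 of 34945 probe sets passed an adjusted p threshold of 0.05 (0%), with no adjusted p below 1. Before adjustment, 627 probe sets (1.79%) had a p under 0.05, a share smaller than the 0.05 expected with no difference between groups. None of the 16 glycogen probe sets therefore passed. The lowest mutant array exceeded the highest wild-type array in 1 of the 16, where 1.10% of all probe sets tested did so, and the reverse held in 0 of the 16, against 0.941% of all. Since Stbd1 was chosen with these values known, nothing is read from its count. The 16 differences had a median of 0.11, against -0.0055 over all probe sets tested, and 14 of the 16 were positive, against 48.3% of all. Wild-type replicate 3 was the lowest array in 12 of the 16 and in 16.6% of all probe sets. Without that array the median of the 16 was 0.042, with 10 positive and 6 negative, and 9 of the 16 kept their sign whichever 1 array was left out.

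Gaa, the lysosomal enzyme, did not separate the groups in either of its 2 probe sets. The first (1419428_a_at) lay at 0, -0.02 and 0.24 in mutant muscle, against 0, 0.27, -0.25 and -0.10 in wild-type muscle, a difference of 0.10 ± 0.14. The second (1436849_x_at) lay at -0.11, 0.34 and 0 in mutant muscle, against 0.21, -0.01, -0.56 and 0.09 in wild-type muscle, a difference of 0.14 ± 0.20. In both, wild-type replicate 3 was lowest, and without it the differences were 0.02 and -0.02. The _x_at suffix is the manufacturer's mark for a probe set with probes that may also match other transcripts, so its values are less certain. The highest arrays differed between the 2, wild-type replicate 2 in the first and mutant replicate 2 in the second. Of the 2 genes placed on the lysosomal route, only Stbd1 thus had separate groups, although the difference between the 2 genes was not tested.

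The synthesis genes had overlapping groups, with differences from -0.08 to 0.30. Gyg, the primer protein, lay at 0, 0.06 and 0 in mutant muscle, against -0.08, 0.16, -0.11 and 0.11 in wild-type muscle for its first probe set (1448429_at), a difference of -0.0014 ± 0.10. All 3 mutant arrays fell inside the wild-type range. Its second probe set (1459522_s_at) had -0.21, 0.39 and -0.22 in mutant muscle, against 0.26, 0, -0.26 and 0.25 in wild-type muscle, a difference of -0.08 ± 0.20. These 2 probe sets gave the only negative differences of the 16.

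Gys1, the muscle glycogen synthase, gave probe sets that disagreed on the order of the arrays. In the first (1416737_at) the values were 0.14, -0.28 and 0 in mutant muscle, against -0.25, 0.12, 0.13 and -0.24 in wild-type muscle, a difference of 0.01 ± 0.15. In the second (1450196_s_at) they were 0, 0.66 and -0.20 in mutant muscle, against 0.09, -0.34, -0.68 and 0.36 in wild-type muscle, a difference of 0.30 ± 0.29. Mutant replicate 2 was the lowest of all arrays in the first and the highest in the second. Without mutant replicate 2 the second difference was 0.04, and without wild-type replicate 3 it was 0.12. The _s_at suffix marks a probe set whose probes are shared by several transcripts.

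Gbe1, the branching enzyme, varied little. It lay at -0.07, 0.17 and 0 in mutant muscle, against 0, 0.06, -0.05 and -0.26 in wild-type muscle, a difference of 0.10 ± 0.11. The highest array was mutant replicate 2 and the lowest wild-type replicate 4, with the rest between. Without mutant replicate 2 the difference was 0.03, and without wild-type replicate 4 it was also 0.03.

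The genes of glycogen breakdown had overlapping groups, and wild-type replicate 3 was the lowest array in each of their probe sets. Pygm, the muscle phosphorylase, lay at -0.21, -0.03 and 0.05 in mutant muscle, against 0, 0.11, -0.56 and 0.08 in wild-type muscle. Wild-type replicate 3 was lowest by a wide margin, and the other 3 wild-type arrays were close to each other. The difference was 0.03 ± 0.18 with all arrays and -0.13 without wild-type replicate 3.

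Phka1, the muscle regulatory subunit of phosphorylase kinase that is mutated in a mild muscle glycogenosis, was measured by 3 probe sets. The first (1422743_at) had -0.40, 0 and 0.08 in mutant muscle, against 0.26, -0.26, -1.0 and 0.06 in wild-type muscle. The second (1422744_at) had -0.15, 0.01 and 0.51 in mutant muscle, against 0, 0.38, -1.11 and -0.24 in wild-type muscle. The third (1435567_at) had -0.21, 0 and 0.51 in mutant muscle, against 0.07, 0.15, -1.16 and -0.11 in wild-type muscle. All 3 put wild-type replicate 3 at the bottom, and the last pair put mutant replicate 3 at the top. The differences were 0.13 ± 0.30, 0.37 ± 0.35 and 0.36 ± 0.34, the first under its standard error and the others close to theirs. Without wild-type replicate 3 they were -0.13, 0.08 and 0.06.

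Phkg1, the catalytic subunit of muscle phosphorylase kinase, also had wild-type replicate 3 lowest in both of its probe sets. One probe set (1422315_x_at) lay at 0.03, 0 and 0.39 in mutant muscle, against -0.15, 0.34, -0.56 and -0.03 in wild-type muscle, a difference of 0.24 ± 0.21. The other (1425164_a_at) lay at -0.04, 0 and 0.33 in mutant muscle, against -0.13, 0.38, -0.78 and 0 in wild-type muscle, a difference of 0.23 ± 0.26. Mutant replicate 3 and wild-type replicate 2 were the 2 highest arrays in both. Without wild-type replicate 3 the differences were 0.09 and 0.01.

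Across the 6 probe sets of Pygm, Phka1 and Phkg1, wild-type replicate 3 was the lowest array each time. In the same array fast fibre markers averaged -0.30, against -0.08 to 0.07 in mutant muscle and 0.04 to 0.05 in the other wild-type arrays, and 6 of the 10 were lowest there. Muscle fibre markers averaged -0.34, with 5 of 10 lowest there, while 7 of 8 adipocyte, 5 of 8 fibroblast and 6 of 8 leukocyte markers were highest there. Their part in the low glycogen values was not tested. Stbd1, at -0.38 in that array, was lower still in wild-type replicates 1 and 4.

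**Figure D2:**
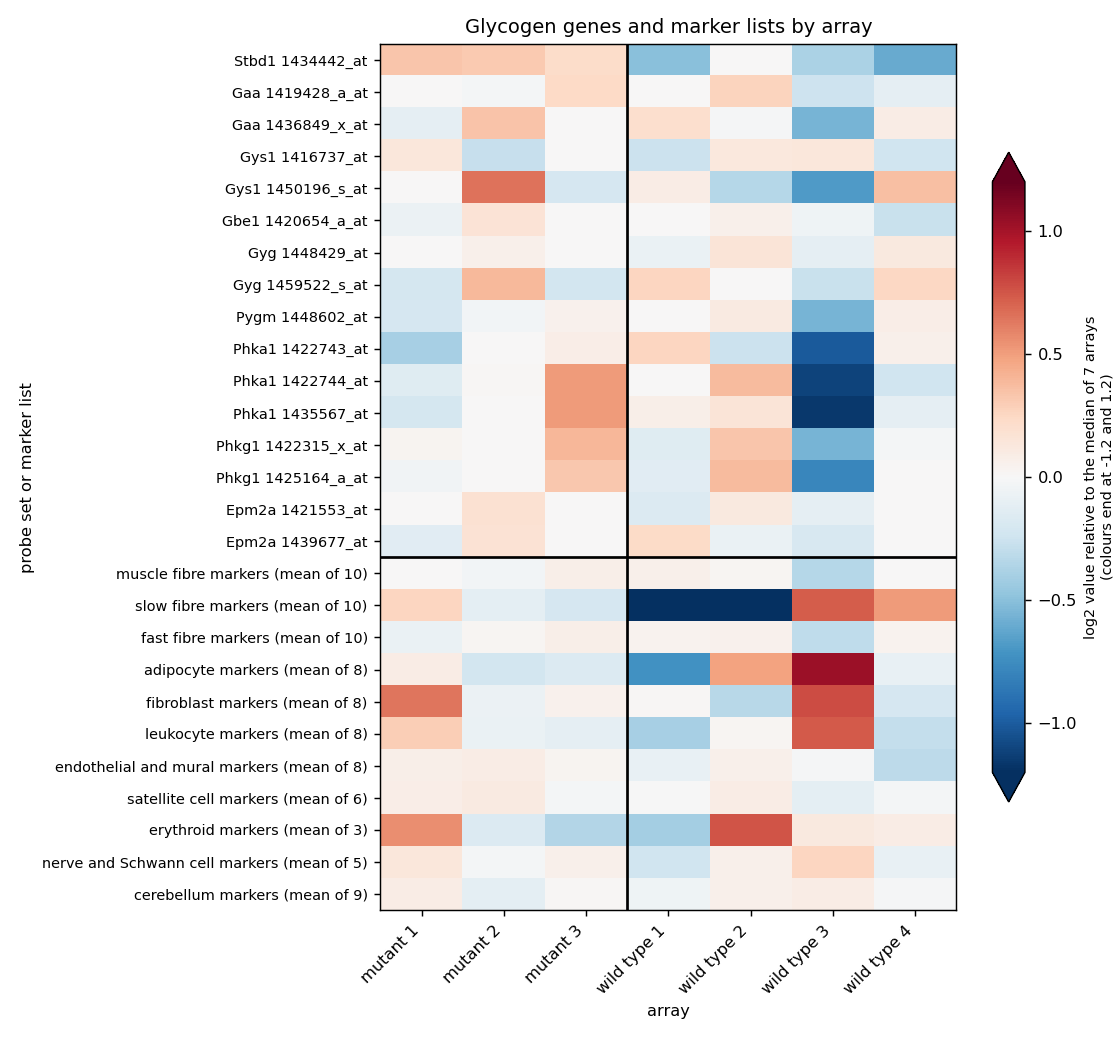
Log2 value relative to the median of 7 arrays, as colour, for the 16 glycogen probe sets (upper rows) and the mean of each marker list (lower rows), with mutant arrays left of wild-type arrays. Wild-type replicate 3 is dark blue for Phka1 (-1.0 to -1.16) and red for adipocyte (1.02), fibroblast (0.78) and leukocyte (0.74) markers, and the slow fibre means of -3.02 and -2.11 lie beyond the colour scale.

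The 250 bases before the RefSeq gene start (assembly GRCm38.p6) are shown for Stbd1, the gene whose groups did not overlap, and for Pygm, Phka1 and Phkg1, the breakdown genes. All 9 genes had such a window. The letters searched on both strands were CANNTG, the E-box core bound by myogenic factors among others, CACGTG, the form preferred by the lysosomal regulator TFEB, and TGATGNAA, the core of the composite element of the stress factor ATF4. CACGTG is a special case of CANNTG. Capitals mark CANNTG matches.
Stbd1, chr5:92602801-92603050, plus strand: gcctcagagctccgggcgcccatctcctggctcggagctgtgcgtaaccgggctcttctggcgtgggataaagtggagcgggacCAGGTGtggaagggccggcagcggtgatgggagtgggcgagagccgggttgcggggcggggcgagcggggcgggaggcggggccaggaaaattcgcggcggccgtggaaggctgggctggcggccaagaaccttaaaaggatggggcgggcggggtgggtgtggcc
Pygm, chr19:6384158-6384407, plus strand: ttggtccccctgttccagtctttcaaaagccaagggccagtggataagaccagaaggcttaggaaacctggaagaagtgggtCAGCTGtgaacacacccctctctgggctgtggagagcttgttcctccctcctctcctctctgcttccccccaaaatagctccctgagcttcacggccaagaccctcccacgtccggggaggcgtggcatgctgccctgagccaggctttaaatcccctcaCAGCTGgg
Phka1, chrX:102644247-102644496, minus strand: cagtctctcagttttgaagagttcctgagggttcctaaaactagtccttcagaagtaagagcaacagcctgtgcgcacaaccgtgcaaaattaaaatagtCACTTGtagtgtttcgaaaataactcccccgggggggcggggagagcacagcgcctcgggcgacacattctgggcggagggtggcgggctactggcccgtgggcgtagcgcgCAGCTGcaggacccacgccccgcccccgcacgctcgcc
Phkg1, chr5:129879089-129879338, minus strand: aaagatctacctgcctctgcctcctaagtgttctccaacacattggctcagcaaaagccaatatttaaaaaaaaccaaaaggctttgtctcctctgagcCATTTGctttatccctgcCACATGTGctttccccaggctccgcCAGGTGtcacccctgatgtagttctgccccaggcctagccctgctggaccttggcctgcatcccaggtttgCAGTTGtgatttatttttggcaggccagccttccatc
The Stbd1 window held 1 CANNTG match, CAGGTG, and was rich in G and C (71.2%, against a median of 52.4% over all windows). Pygm held 2 CANNTG matches, Phka1 2 and Phkg1 5, a pair of them overlapping. CANNTG was present in 8 of the 9 windows, Epm2a being the exception, and in 66.2% of all 32851 windows of this length. CACGTG was found in 1 of the 9, that of Gaa, and in 6.02% of all windows. TGATGNAA was found in 0 of the 9 and in 3.45% of all windows. A match is a description of the letters and not evidence of binding.

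Epm2a, which encodes laforin, did not separate the groups. Its first probe set (1421553_at) lay at 0, 0.18 and 0 in mutant muscle, against -0.16, 0.11, -0.11 and 0 in wild-type muscle, a difference of 0.10 ± 0.10. The second (1439677_at) lay at -0.14, 0.17 and 0 in mutant muscle, against 0.23, -0.08, -0.19 and 0 in wild-type muscle, a difference of 0.02 ± 0.13. Wild-type replicate 1 was the lowest array in the first and the highest in the second.

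**Figure D3:**
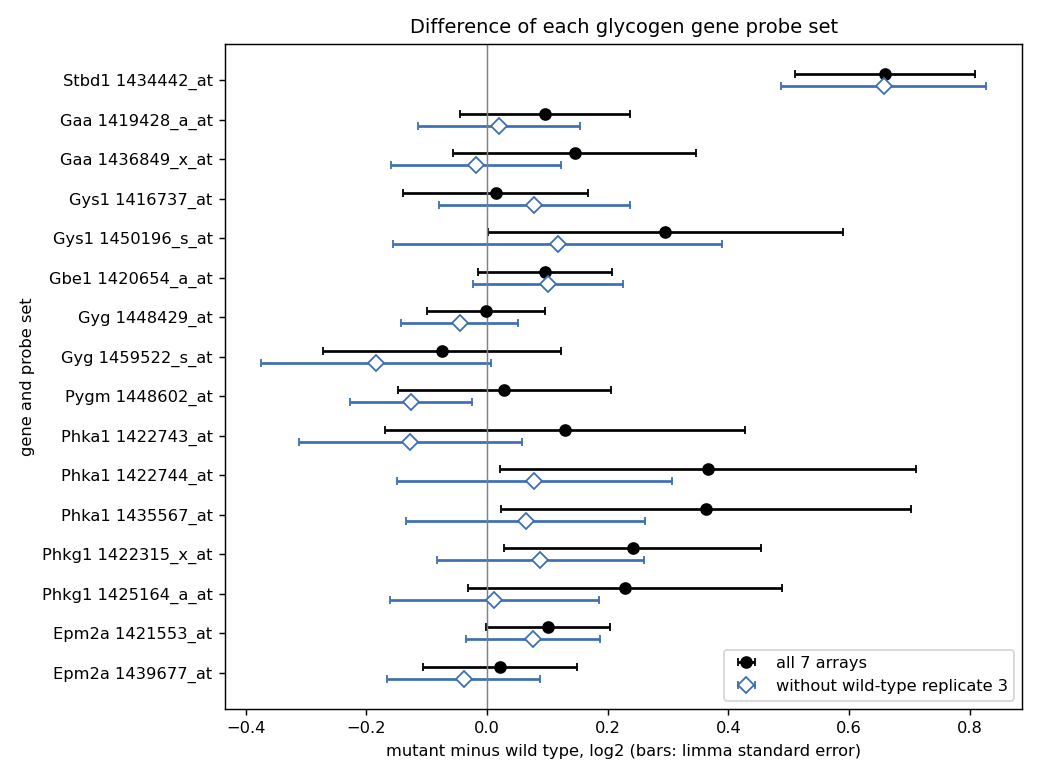
Difference of means, mutant minus wild type, on the log2 scale (horizontal axis) for each of the 16 probe sets, with limma standard errors, from all 7 arrays (black circles) and without wild-type replicate 3 (open blue diamonds). Stbd1 stays at 0.66 in both, while the Phka1 and Phkg1 differences shrink, the first Phka1 probe set moving from 0.13 with all arrays to -0.13.

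The genes with the pattern most like Stbd1 were ranked by Pearson's r over the 7 arrays, a measure of likeness that is given with no test. The closest were Etl4 (r = 0.990, Spearman's rho = 1.00), Lyrm9 (r = 0.962, rho = 0.893), Mrpl40 (r = 0.956, rho = 0.929), Gria4 (r = 0.951, rho = 0.883) and Sbf1 (r = 0.941, rho = 0.929). Etl4 and Gria4 had dim probe sets, with a level between 2 and 4, and the Gria4 values spanned only -0.05 to 0.02. The level of the Mrpl40 probe set could not be read from the spacing of its numbers. Lyrm9, named for a protein motif found in mitochondrial assembly factors, lay at 0.01, 0.20 and 0.09 in mutant muscle, against -0.42, 0, -0.37 and -0.43 in wild-type muscle. Mrpl40, a mitochondrial ribosomal protein, lay at 0.18, 0.20 and 0.15 in mutant muscle, against -0.11, 0, -0.04 and -0.08 in wild-type muscle. Sbf1 lay at 0.32, 0.38 and 0.18 in mutant muscle, against -0.20, 0, -0.04 and -0.15 in wild-type muscle. Because Stbd1 separated the groups, genes picked for likeness to it were bound to lean the same way, and nothing is read from that. Of 34944 other probe sets, 24 (0.0687%) reached r = 0.9. Among the other glycogen genes the highest r with Stbd1 was 0.635, for the first Epm2a probe set, and the lowest -0.250, for the second Gyg probe set.

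The rest of the glycogen pathway was read from lists of 50 further genes, of which 49 were measured by 98 probe sets. None passed the limma threshold in either direction (0 of 98, against 0% of all probe sets). The groups did not overlap in 2 of the 98, both higher in mutant muscle, against 1.10% of all. The differences had a median of 0.02, with 51 positive and 47 negative, against a median of -0.0055 over all probe sets tested. Without wild-type replicate 3 the median of the 98 turned to -0.025, against -0.0021 over all.

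The 2 probe sets without overlap belonged to Igf2r and Gsk3b. Igf2r, the receptor that carries mannose 6-phosphate tagged enzymes such as Gaa to the lysosome, lay at 0.54, 0.20 and 0.58 in mutant muscle, against -0.36, 0, -0.51 and -0.36 in wild-type muscle (1424112_at). Its difference was 0.75 ± 0.15, and it ran from 0.68 to 0.87 with any 1 array left out. A second Igf2r probe set (1424111_at) differed by 0.13 ± 0.19 with overlapping groups. Gsk3b, a kinase that phosphorylates and inhibits glycogen synthase, lay at 0.40, 0.28 and 0.66 in mutant muscle, against -0.38, 0, -1.94 and 0 in wild-type muscle (1437001_at). Its difference of 1.03 ± 0.46 was 0.57 without wild-type replicate 3, and the other Gsk3b probe sets gave differences from -0.12 to 0.69.

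By role, the lists had medians near 0. Glucose entry and UDP-glucose supply had 12 positive and 7 negative differences over 19 probe sets (median 0.08, or 0.05 without wild-type replicate 3). The members with the smallest p there were Slc2a4, the insulin-responsive glucose transporter, at 0.43 ± 0.27 (0.22 without wild-type replicate 3), Slc2a1, the widely expressed transporter, at 0.30 ± 0.35 (0.01 without mutant replicate 2), and Hk2, the muscle hexokinase, at -0.18 ± 0.21 (0.02 without wild-type replicate 1). The other Slc2a4 probe set differed by 0.10 ± 0.22, and the other Slc2a1 probe sets by 0.26 and -0.02. The GSK3 and AMP-activated kinase subunits had 15 positive and 8 negative differences over 23 probe sets (median 0.09, or -0.04 without wild-type replicate 3). After Gsk3b came Prkaa2, a catalytic subunit, at 0.64 ± 0.33 (0.24 without mutant replicate 2) and Prkag3, a regulatory subunit of skeletal muscle, at 0.45 ± 0.26 (0.25 without wild-type replicate 3). That Prkaa2 probe set was dim, with a level between 2 and 4. The Prkaa2 probe sets with a level between 8 and 16 gave 0.42 ± 0.53 and 0.06 ± 0.24.

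The other synthase, phosphorylase and phosphorylase kinase genes, which include the liver and brain forms, had 1 positive and 7 negative differences over 8 probe sets (median -0.10, or -0.016 without wild-type replicate 3). The debranching gene of the same list had no probe set among those tested. Pygl, the liver phosphorylase, differed by -0.31 ± 0.93 and Pygb, the brain phosphorylase, by -0.27 ± 0.31. Their values in wild-type replicate 3 were 2.08 and 1.05, the highest of the 7 arrays, where Pygm was lowest, and without that array the differences turned to 0.39 and 0.03. Phka2, the liver form of the regulatory subunit, differed by -0.24 ± 0.16, or by -0.04 without mutant replicate 2. Its other probe sets differed by -0.06 and -0.01.

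Protein phosphatase 1 and its glycogen-targeting subunits, which oppose phosphorylase kinase, had 8 positive and 8 negative differences over 16 probe sets (median -0.0054, or -0.12 without wild-type replicate 3), with Ppp1r3e at 0.17 ± 0.11, Ppp1r3f at -0.16 ± 0.16 and Ppp1cb at -0.19 ± 0.20. These were 0.10 for Ppp1r3e and -0.03 for Ppp1r3f without wild-type replicate 1, and -0.08 for Ppp1cb without mutant replicate 1. The other Ppp1r3e probe set differed by 0.06, and both had a level between 2 and 4. The other Ppp1cb probe sets differed by -0.11 to 0.18. Malin (Nhlrc1), the ubiquitin ligase that partners laforin, differed by 0.07 ± 0.18 (-0.11 without mutant replicate 2), and Rbck1, a ligase whose loss leads to abnormal glycogen, by -0.06 ± 0.14 (0.04 without mutant replicate 3). The glycophagy and lysosome list had 14 positive and 16 negative differences over 30 probe sets (median -0.03, or 0.00019 without wild-type replicate 3). Beside Igf2r, its members with the smallest p were the lysosomal proteases Ctsl at 0.36 ± 0.15 and Ctsb at -0.27 ± 0.14 (-0.17 without wild-type replicate 3). The other Ctsl probe set differed by 0.02, and the other Ctsb probe sets by -0.16 to 0.11. Gabarapl1, an autophagy protein that binds Stbd1, was named after its values were seen and differed by -0.12 ± 0.23 and -0.03 ± 0.30 in its 2 probe sets.

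**Figure D4:**
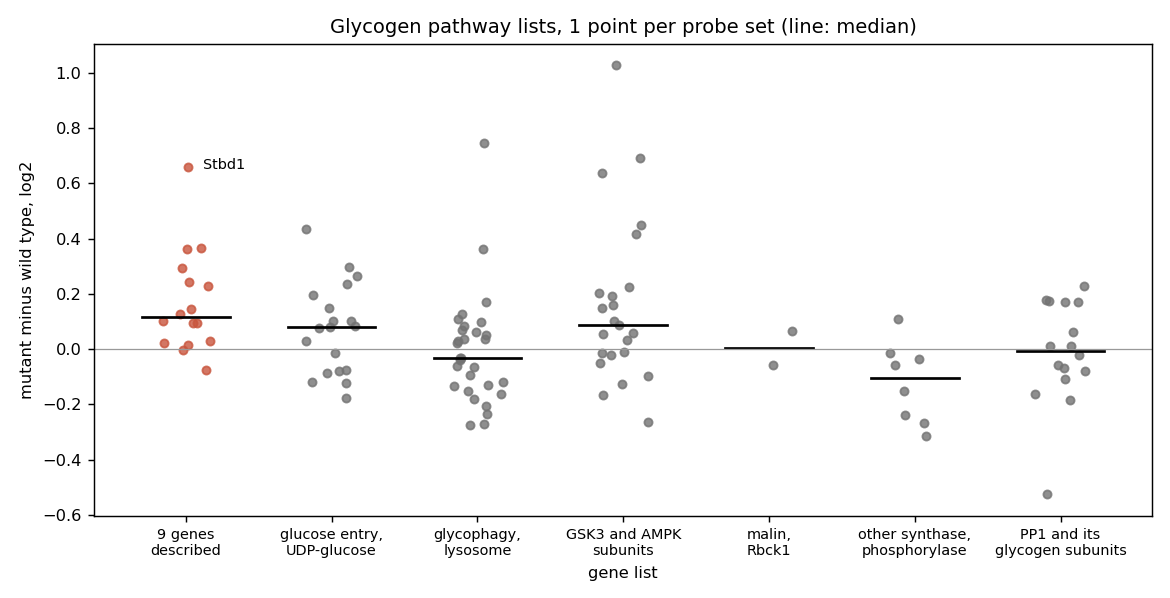
Difference of means, mutant minus wild type, on the log2 scale (vertical axis), 1 point per probe set, for the 9 glycogen genes (red) and 6 lists of other pathway genes (grey), with lines at list medians. The medians lie between -0.10 and 0.11, and the points furthest above 0 are Gsk3b (1.03), Igf2r (0.75) and a second Gsk3b probe set (0.69), next to Stbd1 at 0.66.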

How the data were processed

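The authors deposited log2 values for 45101 probe sets on 7 single-colour Affymetrix arrays, each relative to its probe set's median. This reading comes from the values, whose median was exactly 0 in all 45101 probe sets. GCOS 4.0 is named in the submitters' processing notes, without saying how probes were summarised, arrays scaled or values centred. Per the labels' protocols, RNA was extracted with Trizol and labelled with biotin. Gene names came from the platform annotation, with symbols updated by Entrez identifier (34754 of 34958 matched, GRCm38.p6). The fit left out 932 probe sets with several symbols, 9211 without one, and all 64 controls, most of them already in those counts.

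The 34945 remaining probe sets were fitted in R 4.3.3 using lmFit and eBayes of limma 3.58.1 (two-sided, no covariate, 3 mutant against 4 wild-type arrays), with Benjamini-Hochberg adjustment and a threshold of 0.05. The script was tested on simulated data. Marker means use, per gene, the probe sets in its highest level class. Gene names in the text follow a rule: all 9 genes, the 3 genes of smallest p in each pathway list, and the 5 most like Stbd1. The genes and lists were chosen with earlier results of these data known. The labels call the arrays biological replicates. Arrays give no read depth, so their number limits the precision.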

Additional observations from a re-analysis of the deposited data

Results flagged for a closer look

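Pygm in wild-type replicate 3 was the only value of the 16 glycogen probe sets past Dixon's critical value for 4 arrays. At -0.56 it lay below the other 3 wild-type arrays (0 to 0.11), and the gap to the nearest of them was 0.840 of the group's range. About 1 in 20 such groups is expected to pass by chance, and 16 were looked at. A low value in this array was not particular to Pygm, since it was the lowest array in 12 of the 16. The Phka1 probe set 1435567_at fell short of the critical value. In log2 units its wild-type replicate 3 lay further out, at -1.16 against -0.11 to 0.15 in the other wild-type arrays. In the same array the Gapdh 5 prime minus 3 prime value was -0.55 and the adipocyte marker mean 1.02, and their part in the Pygm value was not tested. The 3 mutant arrays were too few for this comparison.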

How the results depend on the processing

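The limma count of probe sets past the threshold stayed at 0, and that of other pathway genes at 0, under quantile normalization, 1 value per gene, removal of the dimmest class, a variance trend, age as a covariate, the replicate block, each array left out and wild-type replicates 1 and 2 left out together. The count at an unadjusted p under 0.05 was 627 of 34945 probe sets with all arrays. Where all 34945 were kept, it ran from 279 with the replicate block to 1998 with the side of the first principal component as a block. The latter alternative was chosen after seeing the data. With 1 value per gene it was 261 or 289 of 18193 genes, and without the dimmest class 306 of 19793 probe sets. The median of the glycogen differences stayed above 0 in all of these, from 0.042 without wild-type replicate 3 to 0.28 without wild-type replicates 1 and 2. Deviations of same-numbered samples from their group means had r = -0.494, -0.320 and 0.151. Such deviations sum to 0 within each small group, so these values cannot decide whether the replicate numbers pair samples. With the replicate block, which drops wild-type replicate 4, the median of the glycogen differences was 0.16 and the Stbd1 difference 0.58. Of 224 glycogen probe set differences under alternatives, 198 kept their sign and 26 changed it, in Gaa, Gys1, Gyg, Pygm, Phka1 and Epm2a. Part of this count was fixed in advance. Removal of the dimmest class and the variance trend cannot change a difference, and the replicate block repeats the differences without wild-type replicate 4.

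Groups did not overlap in 386 probe sets higher and 329 lower in mutant muscle, of 34945. With 1 value per gene, over 18193 genes, there were 153 and 219 (highest level class) or 187 and 254 (mean of all probe sets). The lower ones thus outnumbered the higher. Without the dimmest class there were 255 and 121 of 19793 probe sets, and without wild-type replicates 1 and 2 together 1903 and 1872 of 34945. With 1 array left out they ran from 609 to 1857 above and from 571 to 1994 below, since fewer arrays overlap less often. The model-based alternatives do not change this count. Signal over background is not given in these values, so the part of dim signal was not tested.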
